A study of Mus musculus with 6 samples.

Results

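Transcripts of the unfolded protein response and of the amino acid response were examined in mpkCCD clone 11 cells, a cloned mouse line of the cortical collecting duct of the kidney, with and without the vasopressin analog dDAVP. The group held 37 genes chosen by function, with earlier results of these arrays known. All 37 were measured among the 12364 genes that at least 1 probe set named alone. For a gene with several probe sets, the brightest of them, by its mean signal over the 6 arrays, stands for it, and probe sets that name several genes were left out. Of the 37, 15 belong to the ATF4 arm (ATF4, its targets and the amino acid genes among them), 4 are stress sensors and their factors, 14 are chaperones and folding enzymes of the endoplasmic reticulum (ER), and 4 serve ER-associated degradation (ERAD). The cells were polarized on membrane supports until their electrical resistance had reached at least 5 kohm per cm2. They then received vehicle (3 samples) or dDAVP at 0.1 nM, an agonist of the V2 receptor (3 samples), and RNA was taken after 5 days. The line is 1 clone, and the labels call the samples of a group biological replicates without saying what was repeated, so p-values measure only the spread between these samples.

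ER stress is sensed by 3 membrane proteins, encoded by Ern1 (IRE1), Eif2ak3 (PERK) and Atf6. IRE1 splices the Xbp1 transcript, and XBP1 and cleaved ATF6 then act on promoters of chaperone and ERAD genes through the ER stress element, ERSE. PERK phosphorylates the initiation factor eIF2 alpha, as does GCN2 when amino acids run short, and this favours translation of ATF4. ATF4 acts with C/EBP proteins on a composite element, CARE, in genes of amino acid transport and synthesis and of the stress response. The chaperone genes and the ATF4 targets are thus background readouts of branches that differ only in part, and a gene such as Herpud1 can hold elements of both kinds.

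Both elements were looked for in the promoters of the members, and the stretches that hold them in some of these genes are shown first. RefSeq promoter windows on GRCm38.p6, from 250 bases before to 50 bases after the start of a transcript, were found for 33 of the 37 genes, the exceptions being Atf6, Hyou1, Manf and Slc7a5. Letters were matched exactly on both strands for ERSE (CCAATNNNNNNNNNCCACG), ERSE-II (ATTGGNCCACG), UPRE (TGACGTGG), CARE (TGATGNAA) and the cAMP response element CRE (TGACGTCA). ERSE, ERSE-II and, on its other strand, UPRE share the letters CCACG, and UPRE and CRE share TGACG. The stretches below lie upstream of the start, run 5' to 3' on the gene's strand, and have CARE or ERSE letters in capitals, with positions counted back from the start. The first stretches are those of ATF4 arm genes, where the capitals mark CARE on either strand.
Chac1 (chr2:119351019-119351086, plus strand, bases -223 to -156): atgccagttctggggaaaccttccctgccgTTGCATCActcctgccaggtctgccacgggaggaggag
Asns (chr6:7693210-7693262, minus strand, bases -53 to -1): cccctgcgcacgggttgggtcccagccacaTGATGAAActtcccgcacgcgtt
Slc7a11 (chr3:50443623-50443709, minus strand, bases -96 to -10): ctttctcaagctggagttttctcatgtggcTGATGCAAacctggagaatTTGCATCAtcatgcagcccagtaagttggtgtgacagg
Nupr1 (chr7:126625543-126625610, minus strand, bases -140 to -73): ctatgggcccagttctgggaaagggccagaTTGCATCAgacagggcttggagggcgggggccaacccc

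Herpud1, an ERAD gene, held both kinds of element, a CARE from base -112 to -105 and an ERSE-II from -52 to -42, both in capitals.
Herpud1 (chr8:94386287-94386417, plus strand, bases -142 to -12): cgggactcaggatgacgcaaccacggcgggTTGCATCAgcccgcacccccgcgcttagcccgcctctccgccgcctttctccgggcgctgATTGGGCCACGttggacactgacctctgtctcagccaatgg

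The last stretches are chaperone promoters, where the capitals mark ERSE, once in Hspa5 and Pdia6 and in both directions in Hsp90b1.
Hspa5 (chr2:34771995-34772073, plus strand, bases -95 to -17): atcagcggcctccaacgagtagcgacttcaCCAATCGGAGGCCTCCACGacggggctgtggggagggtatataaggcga
Hsp90b1 (chr10:86705503-86705686, minus strand, bases -242 to -59): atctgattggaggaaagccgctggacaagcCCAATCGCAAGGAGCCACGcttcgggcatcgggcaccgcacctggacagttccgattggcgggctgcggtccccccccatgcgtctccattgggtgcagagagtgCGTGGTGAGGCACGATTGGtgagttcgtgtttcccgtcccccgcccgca
Pdia6 (chr12:17266461-17266539, plus strand, bases -128 to -50): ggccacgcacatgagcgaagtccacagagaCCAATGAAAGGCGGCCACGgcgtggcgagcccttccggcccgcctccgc

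An ERSE lay in 39 of 32851 windows of all genes (0.119%). Among the members with a window it lay in 7 of 12 chaperone genes (Calr, Canx, Creld2, Dnajc3, Hsp90b1, Hspa5 and Pdia6), in the ERAD gene Syvn1, and in 0 of 14 genes of the ATF4 arm. ERSE-II, found in 0.0365% of all windows, lay in Dnajb11 and Herpud1. CARE lay in 3.97% of all windows, in 5 of 14 genes of the ATF4 arm (Asns, Chac1, Nupr1, Slc7a11 and Trib3) and in Herpud1, but in 0 of 12 chaperone genes. Slc3a2 and Sesn2, both of the ATF4 arm, had a window without a CARE. CRE, in 1.79% of all windows, was found in 1 member, Ppp1r15a, and UPRE, in 0.676%, in 0 members. These matches describe letters in a window, and no binding was measured.

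**Figure D1:**
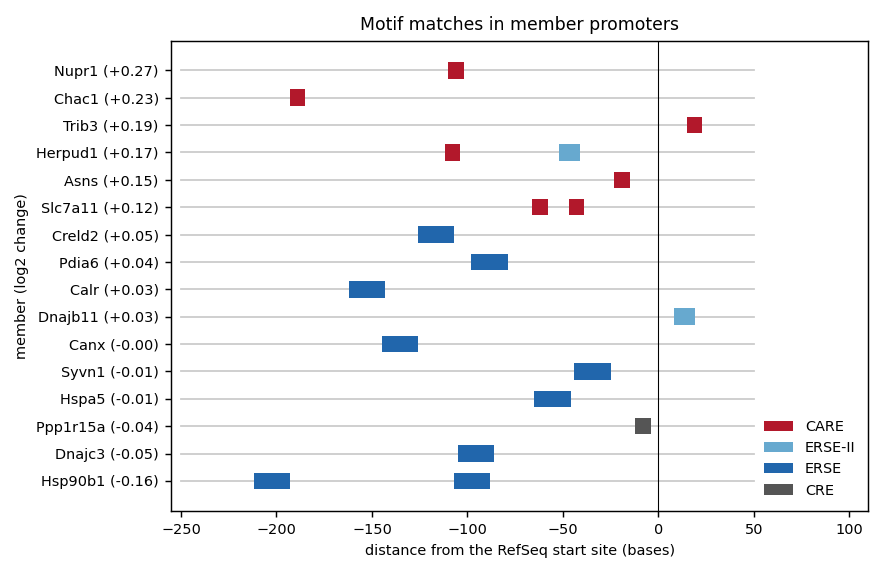
Positions of exact motif matches in the promoter windows of the 16 members that hold one, ordered by log2 change with dDAVP (in brackets). The horizontal axis is the distance from the RefSeq start site in bases, grey lines are the windows and boxes the matches. The 6 genes with a CARE (red) occupy the top with changes of 0.12 to 0.27, and the genes with an ERSE (dark blue) lie between -0.16 and 0.05. Genes of the ATF4 arm with a window but no match are not shown, and their changes ran from 0.07 (Atf4) to 0.26 (Slc3a2).

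The samples carried the treatment that their labels give. Aqp2, the water channel gene that vasopressin induces in principal cells, measured 6.65, 6.72 and 6.72 log2 units with vehicle and 10.93, 10.79 and 10.82 with dDAVP. The V2 receptor gene Avpr2 was 1.44-fold higher (limma adjusted p = 0.0271). Of the 13 principal cell markers measured, 3 passed in limma, all higher: Aqp2, Avpr2 and Fxyd4 (0.68 ± 0.069 SE, adjusted p = 0.0116). The keratins Krt8 (13.30 ± 0.030) and Krt18 (13.26 ± 0.038) and the cadherin Cdh1 (11.85 ± 0.13, all SD, n = 3, vehicle) were bright, while markers of endothelium (1 of 5 measured) and fibroblasts (2 of 6) had means from 2.96 to 3.29. Other principal cell markers were less bright in vehicle: Krt19 (11.27), Hsd11b2 (10.36), Gata3 (9.87), Fxyd4 (8.89) and Avpr2 (8.73). Lower still were Scnn1a (7.45), Scnn1g (7.44), Scnn1b (5.33) and Aqp3 (4.91). Proximal tubule markers (2 of 7) averaged 5.80 to 5.98, with Lrp2 at 8.35 and Aqp1 at 3.43 in vehicle, and thick limb and distal markers (2 of 6) averaged 4.31 to 4.5, with Trpm6 at 5.76 and Slc12a1 at 2.96. Of 7 intercalated cell markers 2 were measured, Atp6v1b1 and Atp6v0a4, and their mean was 6.48 to 6.59 in vehicle and 6.73 to 7.01 in dDAVP arrays; Foxi1, Slc4a1 and Slc26a4, which define these cells, were not among the named probe sets, and the part of such cells in the results was not tested. Of 6 leukocyte markers 3 were measured, with a mean of 5.96 to 6.05 in vehicle and 6.08 to 6.10 in dDAVP arrays, but they disagreed: Ptprc, which defines leukocytes, was at 3.11 and 3.32, Cd68 at 5.46 and 5.65 (unadjusted p = 0.0383), and Csf1r was bright and went the other way, at 9.42 and 9.29. In bulk RNA, fewer cells of a type and less RNA per cell cannot be told apart. Correlations between arrays were 0.996 to 0.998. The controls added to the labelled material read 10.54 to 10.69 log2 units in vehicle and 10.42 to 10.54 in dDAVP arrays. Scaling the arrays to them moved the median change of all genes from 0.01 to 0.16, so the changes below are best read against the median of all genes.

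With dDAVP the genes of the ATF4 arm stood slightly above their vehicle level, and the ER chaperones stood at theirs. The median log2 change was 0.13 over the 15 genes of the ATF4 arm, 0.02 over the 14 chaperones and 0.01 over all 12364 genes. In the ATF4 arm 14 of 15 genes had a positive change, against 8 of 14 chaperones and 55.4% of all genes. No single member passed the test over all probe sets (0 of 37 in limma at a Benjamini-Hochberg adjusted p below 0.05, smallest adjusted p = 0.201), where 0.291% of all genes passed. At an unadjusted p below 0.05, 6 members were higher (16.2%, against 5.51% of all genes) and 0 lower (against 2.3%). These were Slc3a2, Chac1, Trib3, Asns and Sesn2 of the ATF4 arm and Herpud1 of the ERAD genes. The dDAVP and vehicle values did not overlap in 11 members, all with dDAVP higher (29.7%, against 10.1% of all genes), and the reverse was seen in 0 (against 5.13%). Of those 11 members 8 were in the ATF4 arm, 2 were sensors or factors, 1 was an ERAD gene and 0 were chaperones. The count of 6 became 18 with arrays scaled to the hybridisation controls, 2 with arrays scaled to the poly-A controls, 10 with a trended prior and 3 without dDAVP replicate 3. Over all genes, 154, 31, 99 and 16 passed after adjustment in these settings, against 36 in the main fit. The share of all genes at an unadjusted p below 0.05 was not worked out for them, so these counts have no background beside them. Slc3a2 and Chac1 were among the members higher at that threshold under each of the 15 alternatives tried.

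**Figure D2:**
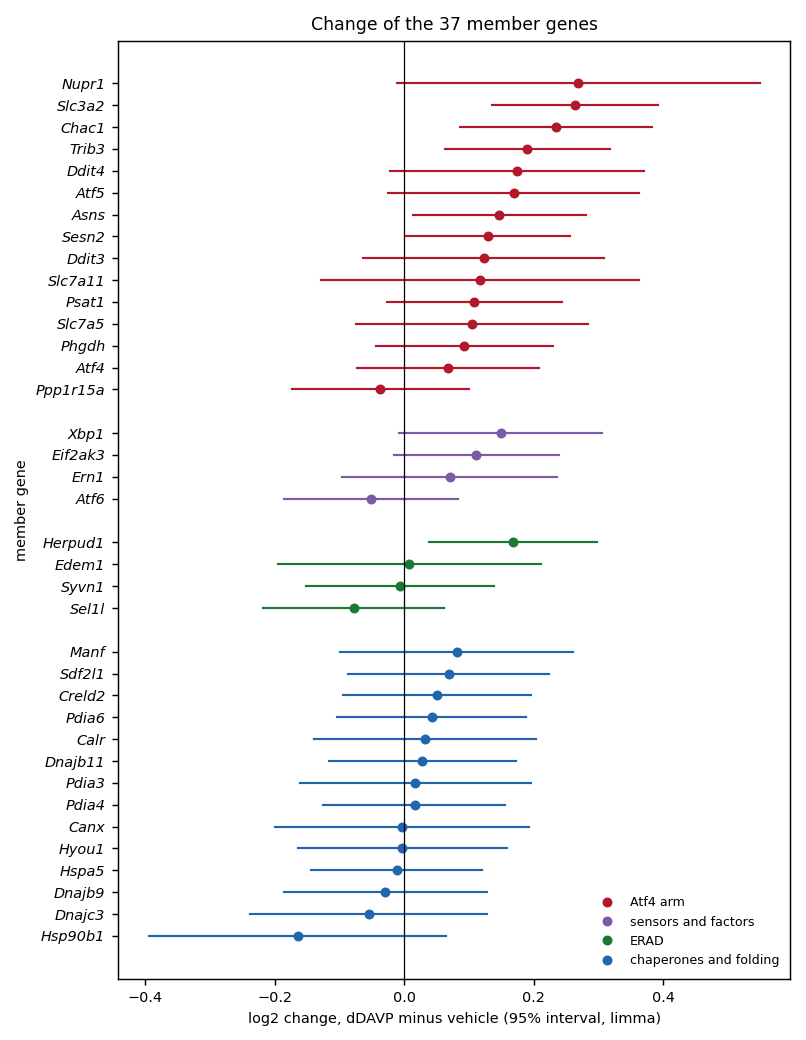
Log2 change (dDAVP minus vehicle, points) with its 95% interval from limma (lines) for all 37 members, by function and ordered by size. The intervals of Slc3a2, Chac1, Trib3, Asns, Sesn2 and Herpud1 lie above 0, and those of all 14 chaperones include 0.

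Among the 3 transport members, the one farthest from vehicle was Slc3a2, the heavy chain that carries several amino acid exchangers to the plasma membrane. Slc3a2 measured 11.27, 11.26 and 11.21 log2 units in the vehicle arrays and 11.50, 11.52 and 11.52 in the dDAVP arrays. Every dDAVP array lay above every vehicle array, and the spread within each group was small (SD 0.032 and 0.012). The log2 change was 0.26 ± 0.055 (SE), or 1.2-fold, with a limma adjusted p of 0.201. Slc3a2 passed with a trended prior (adjusted p = 0.0122) and among probe sets above the median level (adjusted p = 0.0484), and over all its alternatives the adjusted p ran from 0.0122 to 0.974. More genes passed in general there, 99 of 12364 with the trended prior and 68 of 8019 above the median level, against 36 of 12364 in the main fit. The light chains of Slc3a2 were closer to vehicle. Slc7a5 (LAT1), which exchanges large neutral amino acids, measured 9.43, 9.55 and 9.31 with vehicle and 9.48, 9.52 and 9.60 with dDAVP. Slc7a11 (xCT), the cystine and glutamate exchanger, was dim, at 3.73, 3.68 and 4.03 with vehicle and 3.84, 4.05 and 3.90 with dDAVP. The groups overlapped for both light chains, with log2 changes of 0.10 ± 0.077 and 0.12 ± 0.11 (SE). Single arrays decided these sizes: Slc7a5 ranged from 0.04 (without vehicle replicate 3) to 0.16 (without vehicle replicate 2), and Slc7a11 from 0.05 (without vehicle replicate 2) to 0.23 (without vehicle replicate 3). The mean signal of Slc7a11 was in the lowest 14.5% of all probe sets, where ratios can be compressed.

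Among the stress regulators downstream of ATF4, Chac1 and Trib3 stood apart from vehicle in every array. Chac1, an enzyme that degrades glutathione, measured 9.80, 9.84 and 9.69 with vehicle and 10.05, 10.02 and 9.97 with dDAVP. The log2 change of Chac1 was 0.23 ± 0.064 (SE), or 1.18-fold (unadjusted p = 0.0068, limma adjusted p = 0.369). Trib3, a pseudokinase that ATF4 and CHOP induce and that restrains them, measured 8.41, 8.44 and 8.44 with vehicle and 8.63, 8.64 and 8.59 with dDAVP. Its change was 0.19 ± 0.055 (SE, adjusted p = 0.404), and a second, dimmer probe set gave 0.23 ± 0.080, also without overlap of the groups. Sesn2, a leucine sensor that restrains mTORC1, measured 6.64, 6.67 and 6.63 with vehicle and 6.79, 6.78 and 6.75 with dDAVP. The change of Sesn2 was 0.13 ± 0.055 (SE, adjusted p = 0.617). Its other probe set gave 0.27 ± 0.11, with overlapping groups.

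The factor genes Atf4 and Ddit3 were closer to vehicle than Chac1 and Trib3, a difference that was not tested. Atf4, whose protein is regulated chiefly at translation, measured 11.71, 11.85 and 11.78 with vehicle and 11.83, 11.84 and 11.86 with dDAVP. Ddit3, which encodes the pro-apoptotic factor CHOP, measured 8.01, 8.23 and 8.21 with vehicle and 8.37, 8.24 and 8.21 with dDAVP. In both genes the groups overlapped, with changes of 0.07 ± 0.061 and 0.12 ± 0.080 (SE), and each had a dimmer probe set with a negative value (-0.08 and -0.03), while the dimmest Atf4 probe set had 0.19. Leaving out vehicle replicate 1 gave the lowest values, 0.03 for Atf4 and 0.05 for Ddit3, and leaving out vehicle replicate 2 the highest, 0.10 and 0.16. Atf5, a factor whose translation is controlled like that of Atf4, had a change of 0.17 ± 0.084 without overlap. Ddit4 (REDD1), an inhibitor of mTORC1, had 0.17 ± 0.085, and Nupr1, a small stress-induced chromatin protein, 0.27 ± 0.12. The spread of Nupr1 came from vehicle replicate 3, at 7.30 beside 6.84 and 6.90 in the other vehicle arrays, and a second Nupr1 probe set gave 0.36 ± 0.081 (unadjusted p = 0.00245, adjusted p = 0.255) with no overlap. That probe set was picked out after its values were seen. Ppp1r15a (GADD34), the phosphatase subunit that reverses eIF2 alpha phosphorylation, was the only member of the ATF4 arm with a negative value (-0.04 ± 0.059); it was positive when scaled to the hybridisation controls, where 15 of 15 were.

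The amino acid synthesis genes showed small differences in the same direction. Asns, which makes asparagine, measured 10.28, 10.35 and 10.36 with vehicle and 10.45, 10.51 and 10.47 with dDAVP. Its log2 change was 0.15 ± 0.057 (SE, unadjusted p = 0.0345, limma adjusted p = 0.575), and a dimmer probe set gave 0.03 ± 0.070. Psat1 and Phgdh, enzymes of serine synthesis, had 0.11 ± 0.058 and 0.09 ± 0.059, or 1.08-fold and 1.07-fold. All 4 Phgdh probe sets and both of Psat1 had positive values. In the brightest probe set the groups did not overlap for either gene, but the margins were narrow. Vehicle replicate 3 and dDAVP replicate 1 both rounded to 12.06 for Phgdh, and the closest Psat1 values were 11.08 and 11.11. The groups overlapped in the other probe sets of both genes. Psat1 and Phgdh were among the brightest members, in the top of the signal range (percentile 98.9 for Phgdh and 97.1 for Psat1).

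**Figure D3:**
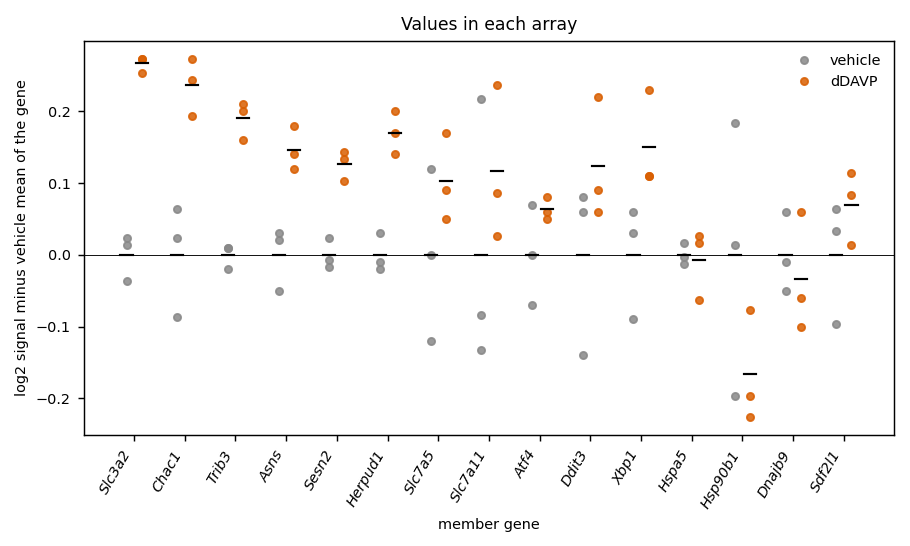
Log2 signal in each of the 6 arrays minus the vehicle mean of the gene, for 15 members (points, 3 vehicle arrays in grey and 3 dDAVP arrays in orange, with black bars at the group means). The groups are apart for Slc3a2, Chac1, Trib3, Asns, Sesn2, Herpud1 and Xbp1, and overlap for the other genes, Hspa5, Hsp90b1 and Dnajb9 among them.

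Of the sensors and their factors, Xbp1 and the PERK gene Eif2ak3 were above vehicle in all 3 dDAVP arrays. Xbp1 measured 10.18, 10.06 and 10.21 with vehicle and 10.26, 10.26 and 10.38 with dDAVP. Its log2 change was 0.15 ± 0.067 (SE, limma adjusted p = 0.642), and all 4 of its probe sets were positive, from 0.07 to 0.17. The table does not separate the spliced from the unspliced Xbp1 transcript here. Eif2ak3 had 0.11 ± 0.055, also without overlap. Ern1 had 0.07 ± 0.072 and Atf6 had -0.05 ± 0.058, with overlapping groups. None of the 4 reached an unadjusted p below 0.05 (0 of 4), although the dimmest Ern1 probe set did, at 0.28 ± 0.10 and a mean in the lowest 6.23% of signals.

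The chaperones and folding enzymes showed no shift that these arrays could resolve. Hspa5 (BiP), the ER HSP70 that also holds the sensors inactive, measured 11.93, 11.94 and 11.96 with vehicle and 11.88, 11.96 and 11.97 with dDAVP. Its change was -0.01 ± 0.057 (SE), with a 95% interval of -0.14 to 0.12, and its other 2 probe sets were also negative, at -0.14 and -0.12. Hsp90b1 (GRP94), the ER HSP90, measured 11.72, 11.34 and 11.55 with vehicle and 11.46, 11.34 and 11.31 with dDAVP. The vehicle arrays of Hsp90b1 were scattered (SD 0.19), and its change was -0.16 ± 0.099. Without vehicle replicate 1, its highest vehicle array, the change was -0.08. Without vehicle replicate 2, its lowest, it was -0.26 and Hsp90b1 became the only member (1) lower at an unadjusted p below 0.05. Dnajb9 (ERdj4), a co-chaperone induced by XBP1, measured 8.94, 8.83 and 8.87 with vehicle and 8.94, 8.78 and 8.82 with dDAVP. Sdf2l1, an ER protein among the strongly stress-induced ones, measured 7.82, 7.95 and 7.98 with vehicle and 8.0, 7.93 and 8.03 with dDAVP. The groups overlapped for both, at -0.03 ± 0.067 and 0.07 ± 0.067. Sdf2l1 ranged from 0.02 (without vehicle replicate 1) to 0.10 (without vehicle replicate 3).

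The other 10 chaperone and folding genes lay between -0.05 and 0.08. They were the co-chaperones Dnajb11 (0.03) and Dnajc3 (-0.05), the disulfide isomerases Pdia3 (0.02), Pdia4 (0.02) and Pdia6 (0.04), the lectin chaperones Calr (0.03) and Canx (-0.0034), the HSP70-like Hyou1 (-0.0036), and the secreted or luminal stress proteins Creld2 (0.05) and Manf (0.08). Groups overlapped in all 14 genes, where 10.1% of all genes had the dDAVP values wholly above and 5.13% wholly below. Of their 29 probe sets 0 reached an unadjusted p below 0.05 in either direction, against 8 of 27 probe sets of the ATF4 arm, all higher. Over all probe sets of 1 gene, 4.91% were higher and 2.84% lower at that threshold, a background at which 29 probe sets hold few calls. The 95% intervals of the 14 genes reached from -0.40 to 0.26, which correspond to 0.76-fold and 1.2-fold. Manf passed at an unadjusted p below 0.05 only with arrays scaled to the hybridisation controls, a setting in which the median change of the chaperones was 0.16, as was that of all genes.

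Of the 4 ERAD genes, Herpud1 was the only one whose groups did not overlap. Herpud1, a membrane protein that organises the ubiquitin ligase complex at the ER, measured 9.38, 9.33 and 9.34 with vehicle and 9.52, 9.49 and 9.55 with dDAVP. Its log2 change was 0.17 ± 0.056 (SE, unadjusted p = 0.0179, limma adjusted p = 0.481). A second probe set gave 0.19 ± 0.057, at 8.84, 8.75 and 8.81 with vehicle and 8.98, 8.98 and 9.01 with dDAVP, again with no overlap. The ligase Syvn1 (HRD1) had -0.01 ± 0.063, its partner Sel1l -0.08 ± 0.060 and the mannosidase-like Edem1 0.01 ± 0.088, with overlapping groups. The dimmest of 5 Sel1l probe sets had -0.19 ± 0.082, with groups apart and a 95% interval from -0.38 to just below 0, and it was the only member probe set (1 of 78) lower at an unadjusted p below 0.05. The promoter window of Herpud1, shown above, held a CARE and an ERSE-II, neither of which was found in another ERAD member. Whether either bears on its change was not tested.

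By array, the contrast between the ATF4 arm and the chaperones was seen in each dDAVP sample. Relative to each gene's vehicle mean, the ATF4 arm averaged 0.15, 0.14 and 0.14 in the dDAVP arrays and -0.03, 0.01 and 0.03 in the vehicle arrays. The chaperones averaged 0.03, -0.01 and -0.01 with dDAVP and 0.01, -0.04 and 0.03 with vehicle. The difference between both groups of genes was 0.12, 0.15 and 0.15 in the dDAVP arrays, above the highest vehicle value of 0.05. In the single dDAVP arrays 11, 10 and 11 of the 15 ATF4 arm genes exceeded all 3 vehicle arrays, against 6, 3 and 5 of the 14 chaperones. Over all genes the same shares were 27.9%, 29.5% and 29.4%, so the chaperones (42.9%, 21.4% and 35.7%) lay on both sides of the background and the ATF4 arm (73.3%, 66.7% and 73.3%) above it. The difference of the medians was 0.11, and it stayed at 0.11 under scaling to either set of added controls, since a common shift of an array cancels in it. No test was made of this difference, because the members were chosen with results of these arrays known.

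**Figure D4:**
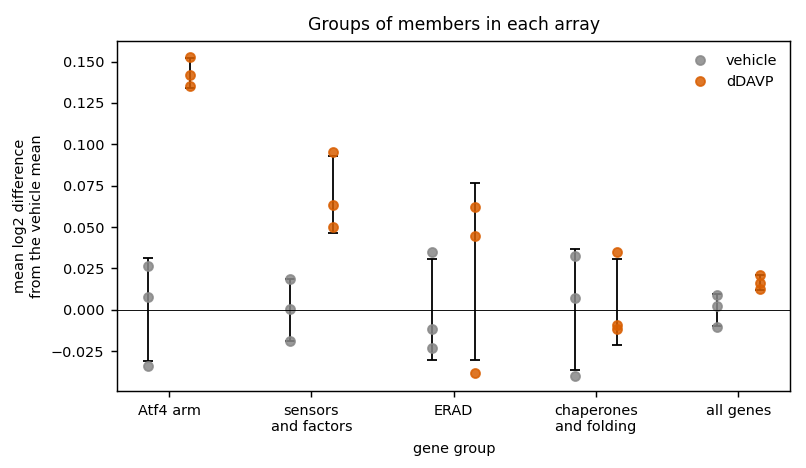
Mean log2 difference from the vehicle mean in each array, for the members by function and for all genes (points, 3 arrays a group, with mean and SD as bars). The dDAVP arrays of the ATF4 arm lie at 0.14 to 0.15, those of the sensors and factors at 0.05 to 0.10, and those of the chaperones at -0.01 to 0.03, where replicate 1 (0.0348) is just above the highest vehicle array (0.0325).

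Other genes of the same pathways had lower medians than the ATF4 arm, although single genes among them were as far from vehicle. Their lists were drawn up by function, also with earlier results known. Of 17 other amino acid transporters measured, 0 passed in limma, 1 was higher at an unadjusted p below 0.05 and the median was 0.06. That gene was Slc1a5 (ASCT2), the glutamine transporter, at 6.75, 6.72 and 6.8 with vehicle and 7.03, 6.98 and 7.05 with dDAVP (0.27 ± 0.058, adjusted p = 0.227). Slc1a5 was as far from vehicle as Slc3a2, with no overlap between groups. Among 14 genes of serine, glycine and one-carbon metabolism 12 were positive, with a median of 0.08 and 0 at an unadjusted p below 0.05 (0 in limma after adjustment). The 19 aminoacyl-tRNA synthetases, many of them ATF4 targets, had a median of 0.03 and 0 at an unadjusted p below 0.05 (0 in limma after adjustment). The 24 other ATF4 targets and eIF2 pathway genes had a median of 0.03, with 1 at an unadjusted p below 0.05, the factor Cebpb (0.19 ± 0.073, adjusted p = 0.560).

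The same held on the ER side, where the medians were 0.0066 for 34 other folding genes, 0.01 for 22 translocon and signal peptide genes, -0.00057 for 28 other ERAD genes and 0.03 for 10 other sensors and factors. In these 4 lists 0 genes passed in limma. At an unadjusted p below 0.05, 1 of 34, 1 of 22, 0 of 28 and 1 of 10 were higher, against 5.51% of all genes. None were lower, against 2.3% of all genes. The 3 higher genes were the thioredoxin-like Tmx4 (0.17 ± 0.065), the translocon-associated Ssr4 (0.25 ± 0.073) and the ER membrane protein gene Wfs1 (0.14 ± 0.056). The 20 cytosolic heat shock genes measured had a median of 0.02 and 0 at an unadjusted p below 0.05 (0 in limma after adjustment). Targets of NRF2, a factor that also acts on Slc7a11, had a median of 0.08, with 11 of 12 positive. At an unadjusted p below 0.05, 4 of the 12 were higher (against 5.51% of all genes), led by Me1 (0.24 ± 0.056), Srxn1 (0.21 ± 0.064) and Nqo1 (0.21 ± 0.069). The limma adjusted p of these 3 genes was 0.268, 0.426 and 0.469. Groups were apart with dDAVP higher in 5 of the 12 NRF2 targets (against 10.1% of all genes). In the ATF4 arm 14 of 15 genes were positive, 5 were higher at that threshold and 8 had groups apart. None of these 10 lists of pathway genes holds a gene that passed, and the difference between them and the ATF4 arm was not tested.

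**Figure D5:**
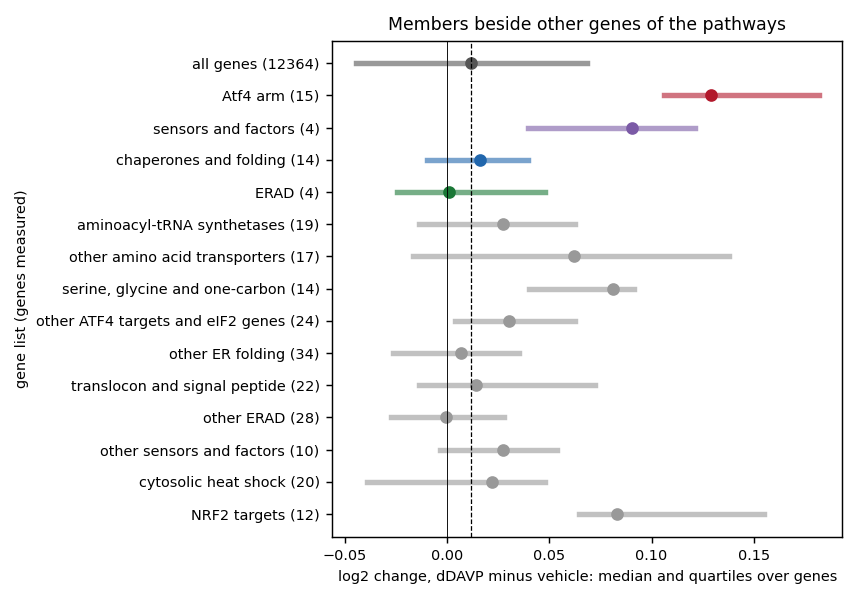
Median (points) and quartiles (bars) of the log2 change over the genes of each list, with the number measured in brackets and the median of all genes as a dashed line. Of the lists shown, the ATF4 arm has the highest median (0.13), followed by the sensors and factors (0.09), the NRF2 targets (0.08) and serine, glycine and one-carbon metabolism (0.08). Lists of cell type markers are not shown. Those of intercalated cells (2 genes, 0.37), leukocytes (3 genes, 0.20) and principal cells (13 genes, 0.15) had higher medians than the ATF4 arm, and the other marker lists lower ones.

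The elements seen in the member promoters were then followed over all genes on the array. The 6 members with a CARE had changes of 0.12 to 0.27, and 4 of them (Chac1, Trib3, Asns and Herpud1) were higher at an unadjusted p below 0.05. Genes of the ATF4 arm with a window and no CARE had changes from -0.04 (Ppp1r15a) to 0.26 (Slc3a2). Slc3a2 and Sesn2 among them were also higher at that threshold, and the difference between genes with and without a CARE was not tested. The 271 measured genes outside the group with a CARE in their window had a median change of 0.02, and 4.8% were higher at that threshold, against 5.21% of the 10042 measured genes with any window. Genes with a CARE in general were thus close to the background. The 8 members with an ERSE had changes from -0.16 to 0.05, and the 6 measured genes with an ERSE outside the group had a median of -0.09, with 1 of them (16.7%) higher at an unadjusted p below 0.05. Genes with a full CRE, the element of cAMP-responsive factors, numbered 353, with a median of 0.0049 and 3.68% higher at an unadjusted p below 0.05.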

How the data were processed

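Total RNA was hybridised to Affymetrix Mouse Genome 430 2.0 arrays, and the authors deposited the signal of each probe set on a log2 scale. MAS5, RMA and Expression Console 1.1 appear in the submitters' processing notes, without role or order, so how the values were made is unknown. For the probe sets, a genome build was not given in the sources used here. All values (2.15 to 14.1, array medians within 0.043) were used as deposited. Summaries over probes can compress ratios of dim probe sets, and the number of arrays limits precision.

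Of 28287 probe sets, 62 controls were left out. Of the other 28225, 23097 named 1 gene in the platform annotation, 611 several and 4517 none, and 23026 matched RefSeq by Entrez ID, with 0 symbols changed. All 28225 were fitted in limma 3.58.1 (R 4.3.3, lmFit and eBayes), vehicle against dDAVP, with Benjamini-Hochberg adjustment over all of them, a threshold of 0.05 and moderated standard errors and 95% intervals. The fit was tested on simulated data. Motifs were matched in the RefSeq promoter table (GRCm38.p6).

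The members and lists were chosen with earlier results of these data known. Values in every array are given for members with an unadjusted p below 0.05 and for 14 genes set by name (Slc3a2, Slc7a5, Slc7a11, Atf4, Ddit3, Trib3, Asns, Chac1, Xbp1, Hspa5, Hsp90b1, Dnajb9, Herpud1, Sdf2l1). From each other list, genes that passed and up to 3 with the smallest unadjusted p below 0.05 are named. Alternatives were other scalings, priors and filters, a replicate block, averaged probe sets, a looser threshold and leaving out each array.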

Additional observations from a re-analysis of the deposited data

How the results depend on the processing

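The count of members past the adjusted threshold was 0 under all alternatives except the trended prior (1) and the restriction to probe sets above the median level (1), in both cases Slc3a2. Over all genes, 99 of 12364 passed with the trended prior and 68 of 8019 with that restriction, against 36 of 12364 in the main fit. The 6 members higher at an unadjusted p below 0.05 became 18 with scaling to the hybridisation controls, 2 with the poly-A controls and 10 with the trended prior. For the alternatives, the share of all genes at that threshold was not worked out, so the counts at it have no background beside them. The median of the ATF4 arm, 0.129, was 0.104 with the mean of all probe sets of a gene, 0.147 for probe sets above the median level, 0.277 with hybridisation controls and 0.105 with poly-A controls. The median of the chaperones, 0.0163, was 0.164 with hybridisation controls and -0.0076 with poly-A controls, and the difference of both medians was 0.0852 with the mean of all probe sets. Leaving out 1 array gave 3 to 7 members higher (3 without dDAVP replicate 3), 0 to 1 lower (1 without vehicle replicate 2), medians of 0.118 to 0.155 for the ATF4 arm and -0.0015 to 0.023 for the chaperones, and a difference of 0.107 to 0.157. Of the 15 members with values in every array, the sign turned only for Dnajb9 (0.118 with hybridisation controls, -0.0756 to 0.00361 without 1 array, positive without vehicle replicate 1 at 0.000895 or dDAVP replicate 2) and Hspa5 (0.136 with hybridisation controls, -0.028 to 0.0155 without 1 array, positive without dDAVP replicate 1). For the changes with setting other than a common shift or fewer samples, the cause was not tested. Same-numbered samples were not paired by the labels, and their deviations correlated at 0.20, 0.05 and -0.05, so the replicate block is given here only: with it 5 members were higher, 0 passed and the smallest adjusted p was 0.401 (Slc3a2). Slc7a11 and Sesn2 lay below the median level and have no value under that filter. With 3 arrays a group, the median standard error of the members was 0.064, and their changes, at most 0.27, did not pass in the main fit. Avpr2 passed at 0.52 ± 0.065 (SE, limma adjusted p = 0.0271). Changes of the size seen in the members can therefore be missed.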
